A study of Mus musculus with 39 samples.

Results

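The genes described here encode the subunits of the mouse proteasome together with its activators, its inhibitor and its assembly chaperones, chosen as every gene whose name on the array begins with Psma to Psmg followed by a number. The rule found 48 genes measured by 61 probes, of 22328 named genes and 55681 probes on the array. The study asked what 2 inhibitors of histone deacetylases, the enzymes that remove acetyl groups from histones, do to the transcriptome of early mouse embryos, and it set the treated embryos beside a normal series from the oocyte to the blastocyst. RNA was hybridised to 1-colour microarrays, with 3 arrays for each of 13 conditions (39 in all), and each array held the RNA of 100 oocytes or embryos. The methods call the 3 arrays of a condition independent samples.

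The 8 control conditions were germinal vesicle (GV) oocytes, metaphase II (MII) oocytes and embryos of 1, 2, 4 and 8 cells, morulae and blastocysts. The embryos came from in vitro fertilization of eggs of B6D2F1 females aged 8 to 9 weeks with sperm of ICR males aged 15 to 20 weeks. The treated embryos had 10 µM T247, which the study names as an inhibitor of HDAC3, or 10 µM MGCD0103 (mocetinostat), which acts mainly on class I HDACs, in the medium for 6 h from 4 h after insemination, and were then moved back to plain medium. Embryos with T247 were collected 12, 24 and 48 h after insemination, that is, with 1, 2 and 4 cells, and embryos with MGCD0103 after 12 and 24 h. The arrays measure pooled RNA, so fewer cells of a type and less RNA per cell cannot be told apart. The RNA was amplified before labelling, and whether RNA of all stages was amplified alike was not tested.

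The proteasome destroys proteins that carry chains of ubiquitin. Its core particle is a barrel of stacked rings: the outer rings are built from the alpha subunits (Psma1 to Psma7), which gate the entrance, and the inner rings from the beta subunits (Psmb1 to Psmb7), of which Psmb5, Psmb6 and Psmb7 carry the peptide-cutting sites. A regulatory particle caps the barrel. Its base holds the ATPases that unfold the substrate (Psmc1 to Psmc6) with the scaffold and ubiquitin-binding subunits Psmd1, Psmd2 and Psmd4, and its lid holds the deubiquitinase Psmd14 and its partners. Immune cells and cells exposed to interferon replace the catalytic subunits by Psmb8, Psmb9 and Psmb10, while Psmb11 is known from the thymus and Psma8 from the testis. In oocytes and early embryos, the ubiquitin-proteasome system is known for clearing stored maternal proteins while the embryo's own genome is switched on.

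Genes for the constitutive subunits are known to share regulators, above all NRF1 (Nfe2l1), which binds the antioxidant response element, so the 250 bases before the annotated start were read from the RefSeq promoter table (build GRCm38.p6) for the 40 member genes that it lists. Psma8, Psmb1, Psmb2, Psmb7, Psmc3, Psmd3, Psmd7 and Psmg2 are not shown. The following 5 promoters are printed because Psmb5, Psmd12 and Psmd14 are subunits of the core and lid that were lower with both inhibitors at the 2-cell stage, Psmd9 was higher with MGCD0103, and Psmb9 is an inducible subunit with a separate rise at 2 cells; each runs 5′ to 3′ towards the gene, and capitals mark the motif matches described after them.
Psmb5 (chr14:54617996-54618245, minus strand): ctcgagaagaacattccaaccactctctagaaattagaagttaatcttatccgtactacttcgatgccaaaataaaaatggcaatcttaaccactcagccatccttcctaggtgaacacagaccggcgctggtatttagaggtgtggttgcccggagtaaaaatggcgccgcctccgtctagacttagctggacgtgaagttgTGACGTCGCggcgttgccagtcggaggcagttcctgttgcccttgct
Psmd12 (chr11:107479278-107479527, plus strand): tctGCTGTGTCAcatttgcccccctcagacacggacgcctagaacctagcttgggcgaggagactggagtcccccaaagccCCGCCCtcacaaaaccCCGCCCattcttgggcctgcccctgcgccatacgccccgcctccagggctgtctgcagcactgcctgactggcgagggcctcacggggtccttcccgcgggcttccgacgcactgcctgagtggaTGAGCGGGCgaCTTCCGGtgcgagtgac
Psmd14 (chr2:61711444-61711693, plus strand): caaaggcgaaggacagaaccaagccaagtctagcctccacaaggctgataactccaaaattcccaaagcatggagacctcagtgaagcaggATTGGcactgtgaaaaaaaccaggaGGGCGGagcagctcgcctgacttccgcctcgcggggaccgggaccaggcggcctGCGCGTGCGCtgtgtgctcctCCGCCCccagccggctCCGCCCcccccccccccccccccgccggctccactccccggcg
Psmb9 (chr17:34187331-34187580, minus strand, overlapping its neighbour Tap1): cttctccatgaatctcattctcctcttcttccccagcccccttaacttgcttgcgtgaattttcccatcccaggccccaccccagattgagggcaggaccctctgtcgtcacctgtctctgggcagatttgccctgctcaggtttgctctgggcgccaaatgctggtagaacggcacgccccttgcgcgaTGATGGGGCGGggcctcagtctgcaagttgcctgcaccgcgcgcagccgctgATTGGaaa
Psmd9 (chr5:123227940-123228189, plus strand): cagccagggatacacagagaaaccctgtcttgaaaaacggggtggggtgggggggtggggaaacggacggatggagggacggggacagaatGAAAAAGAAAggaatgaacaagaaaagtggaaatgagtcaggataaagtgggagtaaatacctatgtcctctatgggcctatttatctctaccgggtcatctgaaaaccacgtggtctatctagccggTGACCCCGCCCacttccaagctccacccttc

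Each motif was searched on both strands, and matches of different motifs may overlap, as the antioxidant response element core and the Sp site do in the Psmb9 and Psmd9 promoters. A gene counted if any of its promoters matched (43 promoters for the 40 genes), whereas the background was counted per promoter. The element core TGANNNNGC was found for 16 of the 40 genes (40.0%), against 35.2% of all 32851 promoters. CCGGAAG, the site of ETS factors, was found for 12 genes (30%) against 6.91% of all promoters, GGGCGG of Sp factors for 22 (55.0%) against 32.7%, and the site of nuclear respiratory factor NRF1, a factor other than Nfe2l1 (the letters GCGC, any base, then TGCGC), for 6 (15%) against 3.74%. CCAAT of NF-Y was found for 14 genes (35.0%) against 33.8%, AAGATGG of YY1 for 3 (7.5%) against 4.49%, and the site of interferon-regulated factors (GAAA, any 2 bases, then GAAA) for 3 (7.5%) against 2.98%. Among the printed promoters, the element core stands in Psmb5, Psmd12, Psmb9 and Psmd9, while Psmd14 holds the NRF1, Sp and CCAAT letters. A match of letters is a description and not a binding site.

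Between 62.4% and 77.3% of the probes of an array were positive and significant over background, and no spot was saturated. After the detection filter 14825 genes were tested, among them 45 of the 48 proteasome genes; Psma8, Psmb8 and Psmb11 did not pass. Values are log2 signals after smooth quantile normalization, log2 fold changes (LFC) are differences on that scale ± SE, and a differentially expressed gene (DEG) has an LFC of at least 1 in size with a limma p below 0.05 after Benjamini-Hochberg adjustment over all genes. The scale carries a shift between stages: from GV to MII oocytes the median of all genes was -0.96, and 0.33 when each array was instead centred on its 75th percentile, so each proteasome median stands beside that of all genes. Replicate 1 of the 2-cell controls stood apart, with a mean correlation among the 3 arrays of 0.957 against 0.989 to 0.996 in the other 12 conditions. For the comparisons that use it, the counts over the 45 genes are given with and without it. Counts by role and the values of many single genes are printed with it only. The fit gave each gene 1 variance estimate over all 13 conditions. The SE and p-values therefore do not follow the wider spread of the 2-cell controls. Control replicates of all stages shared slides 1 to 3 by replicate number, whereas T247 lay on slides 4 and 5 and MGCD0103 on slide 6, so an inhibitor and its slide cannot be told apart. The 2-cell marker genes marked the 2-cell samples, with a summed level of 8.38 to 9.31 log2 units above the 75th percentile in the controls, 8.71 to 8.83 with T247 and 8.53 to 8.57 with MGCD0103, against 2.39 to 3.08 in MII oocytes and 1-cell controls. The 10 cumulus and granulosa cell markers summed to between 5.08 and 7.49 on all arrays. They were lower with the inhibitors than in controls: 5.34 to 5.40 (T247) and 5.52 to 5.68 (MGCD0103) against 5.78 to 6.07 at 1 cell, 5.26 to 5.34 and 5.50 to 5.56 against 6.05 to 6.20 at 2 cells, and 6.66 to 6.72 (T247) against 7.0 to 7.32 at 4 cells. These sums rest on few of the genes. At 4 cells 2 of the 10 were well above background on all arrays and 8 on none, in controls and with T247. At 1 cell these counts were 4 and 6, in controls and with each inhibitor. The part of these markers in the results was not tested.

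Through normal development most proteasome genes had their lowest mean between MII oocytes and the 2-cell stage. The rings, base and lid dipped in MII oocytes and again at 2 cells, with a higher level at 1 cell. Of the 45 genes, 13 had their highest stage mean in GV oocytes, 25 in the morula and 5 in the blastocyst, and 24 had their lowest mean at the 2-cell stage and 11 in MII oocytes. With 75th percentile centring, 30 were highest in the morula and 3 in GV oocytes, and 24 were again lowest at the 2-cell stage. Shares of all genes for these stages were not counted. The median level of all genes tested itself moved, being 10.11 in GV oocytes, 8.55 in MII oocytes, 8.85 at 1 cell and 8.51 at 2 cells. It was 8.06 at 4 cells, 8.15 at 8 cells, 8.94 in the morula and 9.39 in the blastocyst. The span between a gene's highest and lowest stage mean had a median of 4.63 log2 units against 3.95 for all genes. For the 31 genes of the rings, base and lid together, the median level on the 3 arrays of a stage lay between 14.50 and 14.54 in GV oocytes, 11.28 and 11.39 in MII oocytes, 12.21 and 12.29 with 1 cell, 10.59 and 11.18 with 2 cells, 13.33 and 13.41 with 4 cells, 13.76 and 13.92 with 8 cells, 14.96 and 15.11 in the morula and 14.54 and 14.69 in the blastocyst. The arrays of different stages were apart in this level, except that those of GV oocytes and blastocysts overlapped.

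**Figure D1:**
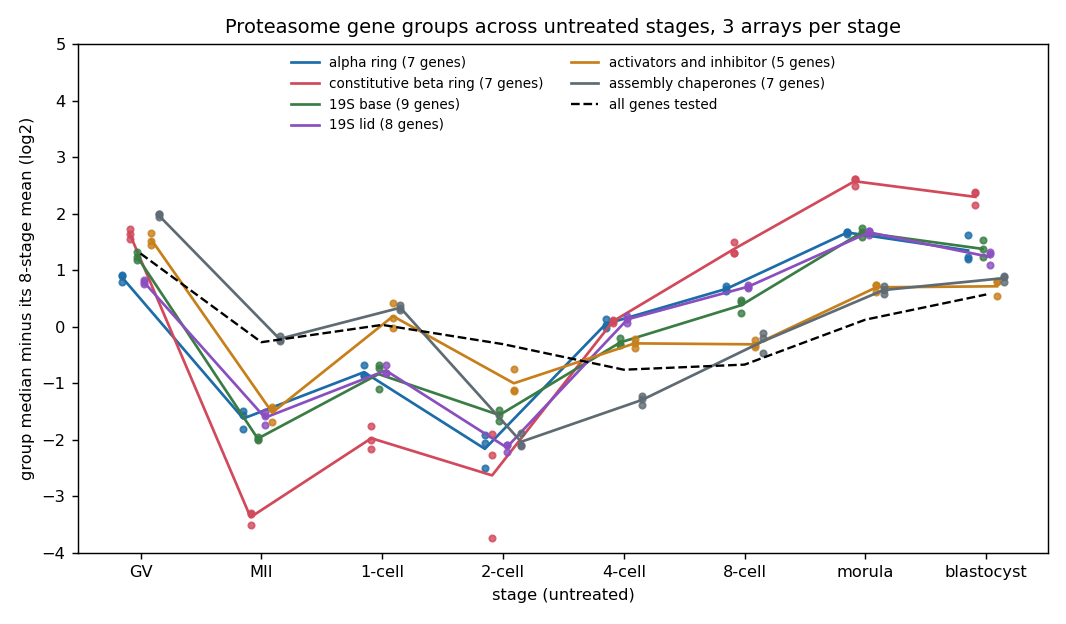
Median level of each role group minus its mean over the 8 control stages (y axis, log2 units) at those stages (x axis), with 1 point per array and lines through the stage means; the dashed line is the same for all genes tested. The rings, base and lid lie below the dashed line from MII oocytes to 2 cells, 1 cell included, and above it from 4 cells on.

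**Figure D2:**
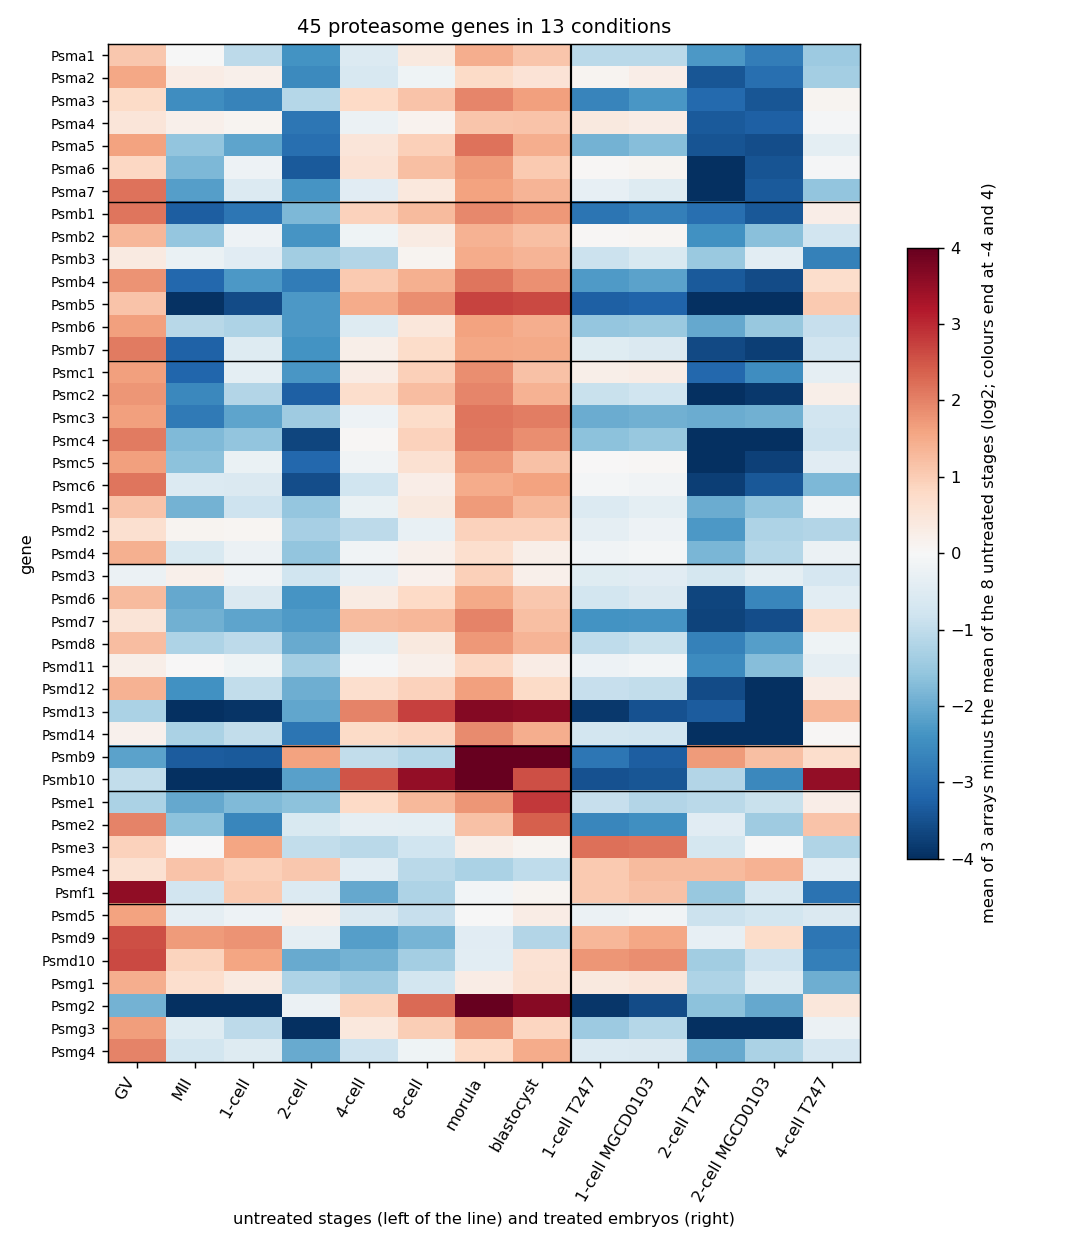
Levels of the 45 tested proteasome genes (y axis, in order of role) in the 13 conditions (x axis, controls left of the vertical line and treated embryos right of it), as the mean of 3 arrays minus that gene's mean over the 8 control stages in log2 units, with colours ending at -4 and 4. The 2-cell columns, control and treated, hold many of the low values and the GV, morula and blastocyst columns most of the high ones.

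From GV to MII oocytes 34 of the 45 genes fell and none rose, where 48.8% of all genes fell and 0.526% rose. The median LFC was -2.70 against -0.96 for all genes, a difference of -1.73. Centred on the 75th percentile, the counts became 27 falls and 4 rises (23.8% and 29.4% of all genes) and the difference of medians was -1.67; the 4 rises were Psma4 (1.07), Psmd11 (1.16), Psmd3 (1.82) and Psme4 (1.87), and Psma1 (0.29) and Psma2 (0.13), DEGs with smooth quantile normalization, changed sign, as Psmd14 did under quantile normalization (0.11). From MII to the 1-cell stage 12 genes rose and Psma1 fell (17.2% and 5.65% of all genes), with a median of 0.21 against 0.13. By 75th percentile centring these counts were 9 and 2 (10.5% and 11.6% of all genes), with medians of -0.15 and -0.23.

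From the 1-cell to the 2-cell stage 25 genes fell and 8 rose (33.9% and 18.2% of all genes), with a median of -1.33 against -0.49, and there were 10 rises and 19 falls under quantile normalization (20.3% and 28.1%). The 4-cell stage brought the opposite: 33 genes rose and 4 fell, where 25.8% of all genes rose and 34.1% fell, and the median was 1.91 against -0.21 for all genes. By 75th percentile centring 34 rose and 3 fell (33.8% and 27.1%), with medians of 2.44 and 0.26. Without replicate 1 of the 2-cell controls, 8 rose and 25 fell into the 2-cell stage and 31 rose and 5 fell out of it, with 21.5% and 33.6%, then 23.1% and 36.4%, of all genes. Within each of the 3 slides, the rings, base and lid had a median of -1.48, -1.40 and -1.51 into the 2-cell stage and of 2.67, 2.41 and 2.39 out of it.

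Later steps were smaller. From 4 to 8 cells 4 genes rose and none fell (8.02% and 6.64% of all genes), with a median of 0.51 against 0.12, and the genes that rose were Psmb3, Psmb10, Psmc6 and Psmg2. From the 8-cell stage to the morula 21 rose and none fell (31.7% and 6.23%), with a median of 0.95 against 0.56, but when centred on the 75th percentile only Psmb9 (4.92) and Psmg2 (1.39) rose, with 15.6% of all genes up and 14.9% down, and the medians were 0.30 and -0.09. From the morula to the blastocyst 2 rose and 1 fell (19.4% and 7.86%), with a median of -0.25 against 0.20. With 75th percentile centring 12 fell and none rose, where 15.5% of all genes fell and 11.6% rose.

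**Figure D3:**
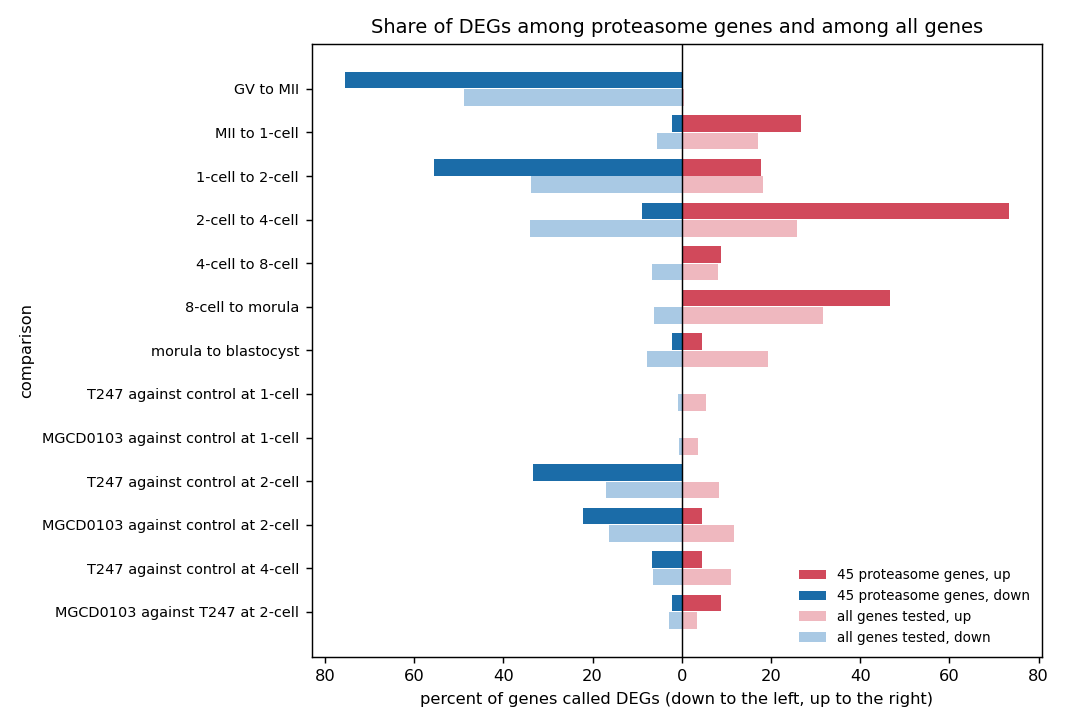
Percent of the 45 proteasome genes (dark bars) and of all 14825 genes tested (pale bars) that were DEGs (x axis, falls to the left and rises to the right of 0) in each comparison (y axis). The dark bar is the longer in several comparisons, among them falls from GV to MII oocytes and from 1 to 2 cells and rises from 2 to 4 cells. There is no dark bar for either inhibitor at 1 cell.

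The 3 catalytic subunits were also high in GV oocytes and in late stages and lower in between, with different depths. Psmb5, which carries the chymotrypsin-like activity, read 15.20, 15.27 and 15.16 in GV oocytes, 10.18, 10.16 and 9.97 in MII oocytes and 10.64, 10.38 and 10.40 with 1 cell. With 2 cells it read 9.74, 12.80 and 12.71, then 15.68, 15.51 and 15.49 at 4 cells, 16.06, 15.90 and 15.83 at 8 cells, 16.82, 16.77 and 16.71 in the morula and 16.69, 16.79 and 16.60 in the blastocyst. Replicate 1 of the 2-cell controls lay below the 1-cell arrays, the other 2-cell arrays above them. Psmb5 fell from GV to MII (LFC -5.10 ± 0.39, limma adjusted p = 4.5e-13), rose to the 2-cell stage (1.27 ± 0.39, limma adjusted p = 4.1e-03) and rose again to 4 cells (3.81 ± 0.39, limma adjusted p = 2.9e-10). The rise into the 2-cell stage was 2.29 without replicate 1 of the 2-cell controls and was no DEG without replicate 2 (0.67) or replicate 3 (0.81), and the rise out of it was 2.79 without replicate 1 and 4.42 without replicate 2. The 2 probes of Psmb5 gave 0.86 and 1.27 into the 2-cell stage, and only the latter was a DEG.

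Psmb6, the caspase-like subunit, read 16.16, 16.13 and 16.07 in GV oocytes, 13.38, 13.39 and 13.34 in MII oocytes, 13.25, 13.34 and 13.16 at 1 cell and 13.28, 11.67 and 11.58 at 2 cells. It then read 14.02, 13.99 and 13.87 at 4 cells, 14.97, 15.05 and 14.82 at 8 cells, 16.22, 16.11 and 15.96 in the morula and 15.70, 16.20 and 15.88 in the blastocyst. Here replicate 1 of the 2-cell controls stood with the 1-cell arrays. The gene fell from GV to MII (-2.75 ± 0.23, limma adjusted p = 4.1e-12), fell to the 2-cell stage (-1.07 ± 0.23, limma adjusted p = 1.1e-04), a call lost without replicate 2 (-0.88) or 3 (-0.74) of the 2-cell controls and under 75th percentile centring (-0.81), and rose to 4 cells (1.78 ± 0.23, limma adjusted p = 3.4e-08). Its rise to the morula (1.15 ± 0.23, limma adjusted p = 6.5e-05) was 0.49 and no DEG when centred on the 75th percentile.

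Psmb7, the trypsin-like subunit, read 14.16, 14.18 and 13.98 in GV oocytes, 8.69, 8.88 and 8.78 in MII oocytes, 11.73, 11.31 and 11.47 at 1 cell and 9.34, 9.82 and 9.73 at 2 cells. It read 12.24, 12.23 and 12.30 at 4 cells, 12.87, 12.72 and 12.64 at 8 cells, 13.60, 13.60 and 13.50 in the morula and 13.34, 13.27 and 14 in the blastocyst. No neighbouring stages overlapped up to the morula. It fell by 5.32 ± 0.14 from GV to MII (limma adjusted p = 2.3e-24), rose by 2.72 ± 0.14 to 1 cell (limma adjusted p = 6.1e-16), fell by 1.87 ± 0.14 to 2 cells (limma adjusted p = 5.1e-13) and rose by 2.63 ± 0.14 to 4 cells (limma adjusted p = 9.0e-17). RefSeq lists pseudogenes of Psma5, Psmb5, Psmb6 and Psmb7, and whether their probes share signal with these was not tested.

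**Figure D4:**
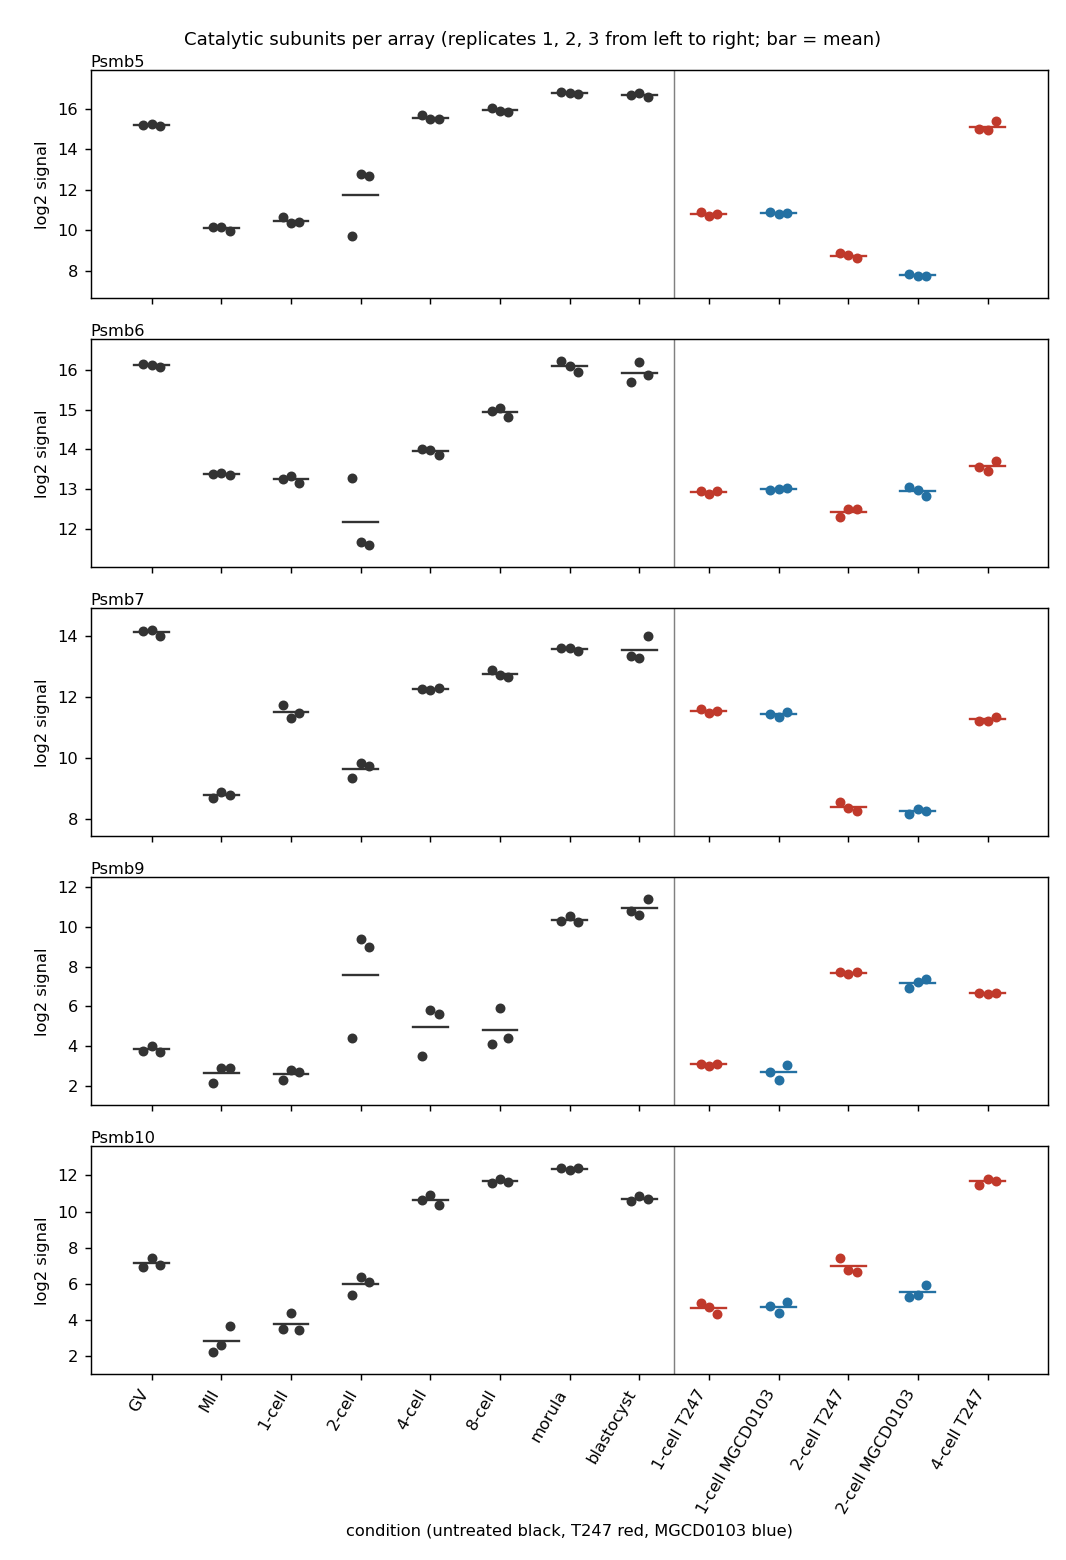
Levels (y axis, log2 normalised signal) of the constitutive subunits Psmb5, Psmb6 and Psmb7 and the inducible Psmb9 and Psmb10 in the 8 control stages and, right of the line, in treated embryos (x axis), with 1 point per array and a bar at the mean. Psmb5 in 2-cell embryos is at 7.74 to 8.89 with the inhibitors and at 9.74 to 12.80 in the controls.

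Among the other ring subunits, 6 of 7 alpha and 6 of 7 constitutive beta genes fell from GV to MII, the exceptions being Psma4 (-0.28) and Psmb3 (-0.65). Psmb1, a structural beta subunit, read 14.49, 14.38 and 14.44 in GV and 9.12, 9.0 and 8.90 in MII oocytes, a fall of 5.43 ± 0.23 (limma adjusted p = 2.0e-19), the largest of the 45. Psma6 read 13.03, 12.75 and 12.85 at 1 cell and 9.45, 9.97 and 9.79 at 2 cells, with no overlap, and fell by 3.14 ± 0.11 (limma adjusted p = 4.1e-21). All 7 alpha genes and 6 of 7 beta genes rose at 4 cells, the exception being Psmb3 (0.21). Psmb3 read 13.54, 13.58 and 13.60 at 4 cells and 14.78, 14.98 and 14.79 at 8 cells, a rise of 1.28 ± 0.21 (limma adjusted p = 1.1e-05), which was 0.94 and no DEG under quantile normalization. Psma1 fell from MII oocytes (14, 13.74 and 13.82) to 1 cell (12.79, 12.64 and 12.97) by 1.05 ± 0.13 (limma adjusted p = 9.1e-08). The call was lost without replicate 1 (-0.96) or 2 (-0.98) of the 1-cell controls and under quantile normalization (-0.99).

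The counts by role stand beside the shares of all genes given above, 48.8% falling from GV to MII, 33.9% falling and 18.2% rising from 1 to 2 cells, and 25.8% rising from 2 to 4 cells. In the base of the regulatory particle 8 of 9 genes fell from GV to MII, 7 fell from 1 to 2 cells, and 8 rose from 2 to 4 cells. Psmc1, an ATPase subunit that helps to open the gate of the barrel, read 11.46, 11.40 and 11.28 in MII oocytes and 14.58, 14.17 and 13.72 at 1 cell. It rose by 2.78 ± 0.14 (limma adjusted p = 6.1e-16). Its 2 probes gave 1.60 and 2.79 for that step. Psmc6, another ATPase, rose from 10.11, 9.87 and 10.16 at 4 cells to 10.91, 11.02 and 11.32 at 8 cells (1.04 ± 0.21, limma adjusted p = 1.7e-04). That call was lost without replicate 1 (0.99) or 2 (0.96) of the 4-cell controls, without replicate 3 of the 8-cell controls (0.81), and when centred on the 75th percentile (0.96). Psmd2, the scaffold that receives ubiquitin-like domains, was flatter than the rest of the base, with -0.52 from GV to MII and 0.28 from 2 to 4 cells, both short of a DEG.

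In the lid 6 of 8 genes fell from GV to MII, 3 fell and 1 rose from 1 to 2 cells, and 7 rose from 2 to 4 cells, the 3 and 1 of 8 into the 2-cell stage being near those shares. The gene that rose to 2 cells was Psmd13, a structural lid subunit, which read 6.45, 6.44 and 6.27 at 1 cell, 6.80, 9.03 and 8.85 at 2 cells and 12.38, 12.25 and 12.20 at 4 cells. Every 2-cell array lay above the 1-cell arrays and below the 4-cell arrays, and the LFC was 1.84 ± 0.30 (limma adjusted p = 2.1e-06) and then 4.05 ± 0.30 (limma adjusted p = 1.7e-13), the latter 3.20 without replicate 1 of the 2-cell controls. The deubiquitinase Psmd14 fell by 1.93 into the 2-cell stage and rose by 3.71 out of it. The 2 probes of Psmd12 disagreed: from GV to MII they gave -3.80 and 0.62, and from 1 to 2 cells -0.96 and -3.45, the value of the brighter probe being the one used.

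The assembly chaperones, which build the rings and the base but leave the finished particle, fell in 5 of 7 cases from GV to MII and again in 5 of 7 from 1 to 2 cells. Psmd10 (gankyrin), a chaperone of the base, read 11.30, 11.27 and 11.36 at 1 cell and 8.74, 7.46 and 7.03 at 2 cells, a fall of 3.57 ± 0.22 (limma adjusted p = 7.6e-15). Its 2 probes gave -3.55 and -2.23. Psmg3, a chaperone of the alpha ring, read 10.25, 10.41 and 10.06, then 7.23, 7.33 and 6.86, then 11.77, 11.74 and 11.60 at 1, 2 and 4 cells, with an LFC of -3.10 ± 0.12 (limma adjusted p = 2.1e-19) and then 4.56 ± 0.12 (limma adjusted p = 1.9e-23). Both steps were free of overlap. Psmg2, which pairs with Psmg1 in alpha ring assembly, moved the other way into the 2-cell stage: it read 3.60, 4.31 and 4.81 at 1 cell, 7.67, 9.09 and 8.86 at 2 cells, 9.59, 9.69 and 9.76 at 4 cells, 10.98, 11.12 and 11.00 at 8 cells and 13.10, 13.10 and 13.03 in the morula. It rose by 4.30 ± 0.29 from 1 to 2 cells (limma adjusted p = 5.8e-14), by 1.35 ± 0.29 from 4 to 8 cells (limma adjusted p = 4.2e-04) and by 2.04 ± 0.29 to the morula (limma adjusted p = 4.5e-07). As only 1 of the 3 arrays at 1 cell was well above background, the size of the first rise is uncertain, and it was 2.36 with normexp background correction. Psmd9, a chaperone of the base, fell from 2 cells (11.64, 9.5 and 9.94) to 4 cells (8.64, 8.50 and 8.38) by 1.85 ± 0.28 (limma adjusted p = 4.8e-07), against the direction of the core. Its other probe gave -0.64.

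Among the activators, Psme1 and Psme2 form the interferon-inducible cap PA28 alpha-beta. Psme1 read 8.28, 8.45 and 8.43 in GV, 7.30, 7.74 and 7.80 in MII, 7.78, 7.97 and 7.93 at 1 cell and 8.16, 7.82 and 8.03 at 2 cells, with no DEG call up to there. It then read 10.42, 10.51 and 10.46 at 4 cells, 10.95, 11.11 and 10.83 at 8 cells, 11.47, 11.46 and 11.34 in the morula and 12.56, 12.16 and 12.76 in the blastocyst, its highest stage. It rose by 2.46 ± 0.14 at 4 cells (limma adjusted p = 3.4e-16) and by 1.07 ± 0.14 at the blastocyst (limma adjusted p = 1.3e-07). The last call was lost without replicate 3 of the blastocysts (0.84), without replicate 1 of the morulae (0.97) and when centred on the 75th percentile (0.63). Psme2 read 12.69, 12.75 and 12.81 in GV, 9.31, 9.0 and 9.04 in MII, 8.05, 8.23 and 8.18 at 1 cell and 7.82, 11.55 and 11.11 at 2 cells. It then read 10.36, 10.52 and 10.36 at 4 cells, 10.36, 10.40 and 10.38 at 8 cells, 12.08, 11.94 and 11.81 in the morula and 12.99, 13.32 and 13.16 in the blastocyst. At 2 cells replicate 1 lay below every 1-cell array and the other arrays far above them.

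Psme2 fell by 3.63 ± 0.45 from GV to MII (limma adjusted p = 2.3e-08) and rose at 2 cells (2.01 ± 0.45, limma adjusted p = 2.2e-04), by 3.24 without replicate 1 of the 2-cell controls and by 1.19 without replicate 2. It rose in the morula (1.56 ± 0.45, limma adjusted p = 3.4e-03), a step of 0.91 when centred on the 75th percentile, and in the blastocyst (1.21 ± 0.45, limma adjusted p = 2.5e-02). The blastocyst call was lost without replicate 2 (1.08) or 3 (1.13) of the blastocysts and without replicate 1 (1.15) or 3 (1.21) of the morulae. Its other probe gave 0.71 from 1 to 2 cells, and RefSeq lists a near copy, Psme2b, and whether the probes share its signal was not tested.

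Psme3, the nuclear activator PA28 gamma, read 12.18, 12.16 and 12.38 in GV, 11.38, 11.14 and 11.46 in MII, 13.05, 12.84 and 12.80 at 1 cell, 11.45, 9.59 and 9.98 at 2 cells, 10.15, 10.18 and 10.44 at 4 cells, 10.41, 10.55 and 10.63 at 8 cells, 11.52, 11.46 and 11.66 in the morula and 11.54, 11.28 and 11.51 in the blastocyst. It rose at 1 cell (1.57 ± 0.24, limma adjusted p = 2.0e-06), fell at 2 cells (-2.56 ± 0.24, limma adjusted p = 6.4e-11) and rose in the morula (1.01 ± 0.24, limma adjusted p = 4.5e-04). The morula call was lost without replicate 1 of the 8-cell embryos (0.80), without replicate 2 (0.99) or 3 (0.90) of the morulae, and when centred on the 75th percentile (0.36). Unlike the core, it showed no rise at 4 cells (-0.08).

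Psme4, the nuclear cap PA200 known for turnover of acetylated histones, had its high levels before the 4-cell stage: 11.69, 12.24 and 12.20 in GV, 12.21, 12.81 and 12.67 in MII, 12.13, 12.59 and 12.38 at 1 cell and 12.44, 12.60 and 12.50 at 2 cells. It read 10.68, 11.24 and 11.12 at 4 cells, 10.23, 10.33 and 10.48 at 8 cells, 9.99, 10.32 and 10.17 in the morula and 10.29, 10.67 and 10.24 in the blastocyst. All arrays up to 2 cells lay above all later ones. The fall at 4 cells, where most of the core rose, was 1.5 ± 0.19 (limma adjusted p = 2.5e-08), and it was -0.99 and no DEG when centred on the 75th percentile.

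Psmf1 (PI31), which inhibits the core particle in vitro, read 13.51, 13.47 and 13.33 in GV, 9.07, 9.27 and 8.96 in MII, 11.14, 10.71 and 10.89 at 1 cell, 9.61, 9.10 and 9.31 at 2 cells, 7.95, 7.88 and 7.61 at 4 cells, 8.68, 8.66 and 8.57 at 8 cells, 9.78, 9.93 and 9.62 in the morula and 10.00, 10.07 and 9.87 in the blastocyst. Its lowest stage was the 4-cell embryo, free of overlap with its neighbours. It fell by 4.33 ± 0.13 from GV to MII (limma adjusted p = 5.0e-23), rose by 1.81 ± 0.13 at 1 cell (limma adjusted p = 9.4e-13) and fell at 2 cells (-1.57 ± 0.13, limma adjusted p = 4.7e-12) and at 4 cells (-1.53 ± 0.13, limma adjusted p = 5.4e-12). Its rise in the morula (1.14 ± 0.13, limma adjusted p = 7.0e-09) was lost without replicate 2 of the morulae (0.99) and when centred on the 75th percentile (0.50).

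The inducible subunits had courses of their own. Psmb9, which replaces Psmb6 in the immunoproteasome, was near background up to 1 cell (3.77, 4.02 and 3.69 in GV, 2.12, 2.87 and 2.90 in MII, 2.31, 2.77 and 2.71 at 1 cell) and read 4.40, 9.38 and 8.98 at 2 cells. It read 3.48, 5.83 and 5.61 at 4 cells, 4.11, 5.92 and 4.42 at 8 cells, 10.28, 10.56 and 10.22 in the morula and 10.80, 10.59 and 11.39 in the blastocyst, so that a first peak at 2 cells, absent from replicate 1, came before the late one. As the 1-cell arrays were not well above background, the rise to 2 cells is given as at least 9.49-fold (limma adjusted p = 2.8e-07). The fitted LFC was 4.99 ± 0.71 and became 6.58 without replicate 1, 3.98 without replicate 2 and 4.27 without replicate 3 of the 2-cell controls, and 2.30 with normexp background correction, which is under that bound. To 4 cells, against a rise in most of the core, it fell by 2.61 ± 0.71 (limma adjusted p = 1.5e-03), where the LFC was -4.35, -1.62 and -1.90 without 2-cell replicates 1, 2 and 3 and -1.78 without replicate 1 of the 4-cell controls, and -1.72 with normexp. The 2-cell replicate 1 lay within the span of the 4-cell arrays. The rise in the morula was 5.54 ± 0.71 (limma adjusted p = 6.6e-08; 3.86 with normexp). A robust fill-in supplied 4 of the values of Psmb9.

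Psmb10, which replaces Psmb7, read 6.96, 7.45 and 7.06 in GV, 2.23, 2.63 and 3.68 in MII, 3.53, 4.38 and 3.45 at 1 cell and 5.41, 6.39 and 6.12 at 2 cells. It then read 10.67, 10.93 and 10.36 at 4 cells, 11.57, 11.80 and 11.61 at 8 cells, 12.39, 12.29 and 12.39 in the morula and 10.60, 10.85 and 10.68 in the blastocyst. The arrays of MII oocytes and 1 cell overlapped and were not well above background, and from 1 cell to the morula every stage lay above the one before it. Psmb10 fell at least 7.82-fold from GV to MII (limma adjusted p = 3.0e-14) and rose at least 3.11-fold at 2 cells (limma adjusted p = 9.1e-08, fitted LFC 2.19 ± 0.29). With normexp background correction the LFC was -1.60 and 0.71, both under those bounds in size, and the rise at 2 cells was no DEG. Psmb10 then rose by 4.67 ± 0.29 at 4 cells (limma adjusted p = 4.1e-15), or by 3.78 with normexp. The rise at 8 cells was 1.01 ± 0.29 (limma adjusted p = 6.0e-03) and was no DEG without replicate 1 or 3 of the 4-cell controls (0.93 each) or replicate 2 (0.90) or 3 (0.92) of the 8-cell embryos. It fell from the morula to the blastocyst by 1.65 ± 0.29 (limma adjusted p = 2.0e-05).

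Psmb8, the inducible partner of Psmb5, was not tested, as it failed the detection filter. In 2-cell controls it was well above background on 2 of 3 arrays, with a mean of -2.78 (SD 1.60, n = 3) and a span of -4.61 to -1.63 in log2 units from the array's 75th percentile. It was well above background on 1 of 3 arrays in 4-cell controls and in 2-cell embryos with T247 or MGCD0103, and on no array of the other conditions. The testis subunit Psma8 and the thymus subunit Psmb11 were well above background on 0 of 39 arrays, with condition means of -7.25 to -5.42 and -7.17 to -5.24.

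At the 1-cell stage, 12 h after insemination, neither inhibitor made a proteasome gene a DEG. With T247 the count was 0 of 45, where 5.52% of all genes were up and 0.816% down. An unadjusted limma p below 0.05 was found for 14 of the 45 and an adjusted one for 7, all short of a DEG in size. With MGCD0103 it was also 0, where 3.55% were up and 0.600% down. Here 11 had an unadjusted limma p below 0.05 and 6 an adjusted one, again short in size. The shares of all genes under these p cuts alone were not counted for either inhibitor, so these numbers cannot be set against all genes. Psmb9 was not well above background in any group at 1 cell, nor was Psmb10 in the controls, against which it was at least 1.25-fold higher with T247 and 1.3-fold higher with MGCD0103. The LFC of the other 43 genes ranged from -0.46 (Psmd9) to 0.83 (Psme1) with T247 and from -0.32 (Psmd3) to 0.95 (Psmg2, above background on 1 of 3 control arrays) with MGCD0103, and their 95% intervals reached from -1.02 to 1.25 and from -0.81 to 1.55. Psme1 read 8.68, 8.84 and 8.64 with T247 and 8.38, 8.42 and 8.68 with MGCD0103, all above the control arrays at 7.78, 7.97 and 7.93, an LFC of 0.83 ± 0.14 (limma adjusted p = 5.2e-05) and of 0.60, below the size of a DEG. The medians over the 45 genes were 0.06 and 0.15, against -0.00 and 0.11 for all genes. Both inhibitors are compared with the same 3 control arrays at each stage.

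At the 2-cell stage 5 of the 14 ring genes and 4 of the 8 lid genes fell with both inhibitors, where 11.6% of all genes did. No base gene or activator fell with both, and of the chaperones only Psmg2 did. With T247 15 of 45 fell and none rose, where 17.1% of all genes fell and 8.32% rose, and the median was -0.70 against -0.28 for all genes. With MGCD0103 10 fell and 2 rose, where 16.2% fell and 11.8% rose, and the median was -0.37 against 0.04. The share of T247 falls was 13 of the 31 ring, base and lid genes and that of MGCD0103 9 of 31; no activator gene fell with either. Centred on the 75th percentile the counts were 1 rise and 11 falls with T247 (11.3% and 11.2% of all genes) and 4 and 9 with MGCD0103 (13.3% and 14.6%), whereas quantile normalization gave 2 and 10 (12.5% and 12.7%) and 6 and 9 (15.3% and 16.1%). The difference of the medians was -0.42 with T247 and -0.40 with MGCD0103 in the fit, and -0.42 and -0.41 when centred on the 75th percentile.

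The catalytic subunit Psmb5 had the largest fall with each inhibitor. It read 8.89, 8.77 and 8.62 with T247 and 7.87, 7.74 and 7.75 with MGCD0103, all below the 2-cell controls at 9.74, 12.80 and 12.71. The LFC was -2.99 ± 0.39 with T247 (limma adjusted p = 1.4e-07) and -3.96 ± 0.39 with MGCD0103 (limma adjusted p = 7.6e-10). Without replicate 1 of the controls these were -4.01 and -4.98, and without replicate 2 -2.39 and -3.36. Its 2 probes gave -2.98 and -3.41 with T247 and -3.95 and -4.46 with MGCD0103. Its promoter, printed above, holds the antioxidant response element core and none of the other motif letters.

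Psmb7 read 8.55, 8.38 and 8.28 with T247 and 8.16, 8.33 and 8.27 with MGCD0103 against 9.34, 9.82 and 9.73 in controls, with no overlap. It fell by 1.23 ± 0.14 (limma adjusted p = 1.5e-08; -0.99 and no DEG under quantile normalization) and by 1.38 ± 0.14 (limma adjusted p = 1.7e-09). Psmb6, the remaining catalytic subunit, read 12.29, 12.49 and 12.51 and 13.05, 12.97 and 12.84, within the span of its controls (13.28, 11.67 and 11.58), and gave 0.25 ± 0.23 and 0.78, neither a DEG. Without replicate 1 of the controls it rose with MGCD0103 (1.27).

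Of the structural ring subunits, Psma3, Psma7 and Psmb1 fell with both. Psma3 read 10.69, 10.49 and 10.65 with T247 and 10.32, 10.23 and 10.32 with MGCD0103 against 11.24, 13.39 and 13.08, all below the controls, with an LFC of -1.96 ± 0.27 (limma adjusted p = 3.7e-07) and -2.28 ± 0.27 (limma adjusted p = 2.7e-08), or -2.62 and -2.95 without replicate 1 of the controls. Psma7 read 10.15, 10.22 and 10.22 with T247 and 11.00, 10.90 and 10.60 with MGCD0103 against 11.30, 12.17 and 12.05. It was lower on every treated array, by 1.64 ± 0.14 (limma adjusted p = 8.0e-11) and 1.01 ± 0.14 (limma adjusted p = 6.6e-07). Psmb1 gave -1.22 ± 0.23 and -1.59 ± 0.23.

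In the base, only the ATPases Psmc2 (-1.27 ± 0.20) and Psmc5 (-1.55 ± 0.12) fell, both with T247, and no base gene fell with MGCD0103, where they gave -0.61 and -0.60. In the lid, Psmd7, Psmd12, Psmd13 and Psmd14 fell with both. Psmd12 read 10.62, 10.39 and 10.41 with T247 and 10.02, 9.84 and 9.91 with MGCD0103 against 11.49, 12.47 and 12.31 in controls, all treated arrays being lower, by 1.62 ± 0.14 (limma adjusted p = 1.5e-10) and 2.16 ± 0.14 (limma adjusted p = 3.4e-13). Psmd14, the deubiquitinase, read 6.55, 6.29 and 6.38, then 6.44, 5.98 and 5.79, against 6.96, 8.01 and 8.05, again without overlap (-1.26 ± 0.17 and -1.61 ± 0.17). Psmd13 read 6.92, 7.0 and 6.97, then 6.21, 6.08 and 6.10, against 6.80, 9.03 and 8.85, so that the T247 arrays overlapped with control replicate 1 (-1.26 ± 0.30 and -2.09 ± 0.30). Psmd6 (-1.33 ± 0.11) and Psmd11 (-1.16 ± 0.11) fell with T247 and gave -0.26 and -0.33 with MGCD0103.

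**Figure D5:**
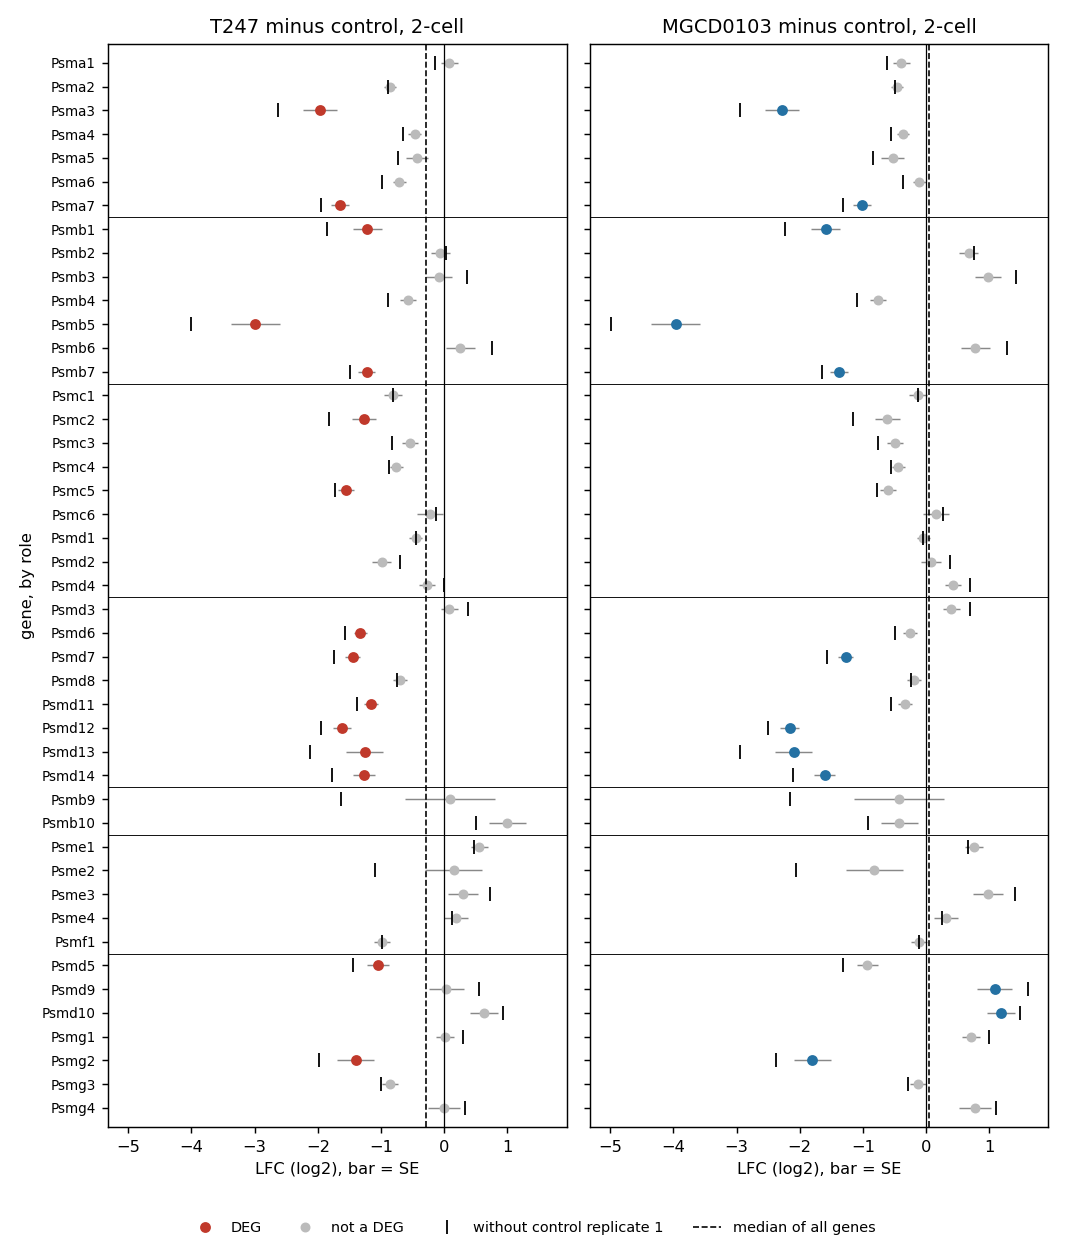
LFC against 2-cell controls (x axis, log2 units, bars SE) of the 45 genes (y axis, grouped by role) with T247 (left) and MGCD0103 (right); coloured points are DEGs, grey points are not, black ticks give the LFC without control replicate 1 and the dashed line the median of all genes. Psmb5 lies farthest to the left in both panels, and no activator is coloured in either.

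The chaperones split. Psmg2 fell with both (-1.40 ± 0.29 and -1.80 ± 0.29), reading 7.30, 7.03 and 7.08 with T247 and 6.59, 6.98 and 6.64 with MGCD0103 against 7.67, 9.09 and 8.86 in controls. Psmd9 and Psmd10, chaperones of the base, were the genes that rose with MGCD0103. Psmd9 read 11.56, 11.45 and 11.34 against 11.64, 9.5 and 9.94, overlapping with control replicate 1 (1.09 ± 0.28, limma adjusted p = 1.4e-03); the call was lost without replicate 2 (0.74) or 3 (0.87) of the controls and with the mean of its probes (0.77). Psmd10 read 9.03, 8.94 and 8.80 against 8.74, 7.46 and 7.03, above every control array (1.18 ± 0.22, limma adjusted p = 5.1e-05), and its call was lost without replicate 3 of the controls (0.85). With normexp background correction both genes fell just short of a DEG in size. Psmd5, another base chaperone, fell with T247 by 1.05 ± 0.17 and gave -0.93 with MGCD0103.

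Of the inducible subunits, Psmb9 read 7.71, 7.62 and 7.71 with T247 and 6.92, 7.21 and 7.36 with MGCD0103, between control replicate 1 (4.40) and the other controls (9.38 and 8.98). It gave 0.09 and -0.42, neither a DEG, but fell by 1.64 with T247 and by 2.15 with MGCD0103 without replicate 1 of the controls. Psmb10 read 7.46, 6.77 and 6.69 with T247, above the controls (5.41, 6.39 and 6.12), and 5.28, 5.40 and 5.96 with MGCD0103, an LFC of 1.00 ± 0.29 just under the size of a DEG and of -0.43.

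The activators and the inhibitor were not DEGs with either compound in the full set. Psme1 read 8.54, 8.54 and 8.62 with T247 and 8.72, 8.73 and 8.84 with MGCD0103 (0.56 and 0.76), all above its controls. Psme2 read 10.45, 10.23 and 10.24, then 9.24, 9.31 and 9.47, and gave 0.15 and -0.82; without control replicate 1 it fell with both (-1.09 and -2.06). Psme3 read 10.61, 10.73 and 10.56, then 11.46, 11.29 and 11.20 (0.29 and 0.98), Psme4 read 12.74, 12.72 and 12.63 with T247 (0.18) and 12.84, 12.85 and 12.79 with MGCD0103, and Psmf1 read 8.36, 8.38 and 8.32, then 9.23, 9.39 and 9.07 (-0.98 and -0.11). The Psme4 arrays all lay above their controls and the Psmf1 arrays with T247 all below theirs.

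Set side by side, 10 genes were DEGs down with each inhibitor (11.6% of all genes), 5 (Psmc2, Psmc5, Psmd5, Psmd6 and Psmd11) were called down with T247 and not with MGCD0103 (5.48%), 2 (Psmd9 and Psmd10) were called up with MGCD0103 and not with T247 (5.26%), and 28 with neither (64.7%); the same control arrays enter both. Replicate 1 of the 2-cell controls differed from the mean of the others by a median of 0.814 over the proteasome genes and 0.645 over all genes, against 0.173 and 0.161 between replicates 2 and 3. Without it 18 fell with T247 and none rose (24.5% and 8.55% of all genes) and 15 fell and 6 rose with MGCD0103 (22.3% and 14.6%), with medians of -0.88 against -0.32 and -0.55 against -0.03. All 15 and all 12 earlier calls remained among these.

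The change of the inhibitor effect from 1 to 2 cells was tested as an interaction. With T247 the effect moved down in 16 genes and up in none (15.9% and 4.32% of all genes), and with MGCD0103 down in 11 and up in 3 (16.7% and 6.48%). Psmb5 moved most in both (-3.33 and -4.35). Without replicate 1 of the 2-cell controls the counts were 19 down and 2 up with T247 (24.3% and 6.36%) and 18 and 6 with MGCD0103 (23.9% and 10.6%). The same counts by 75th percentile centring were 9 down and none up with T247 (8.40% and 7.08%) and 9 down and 5 up with MGCD0103 (12.6% and 10.6%).

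The inhibitors were also compared with each other at the same dose and time, over all 45 genes at each stage and with p-values adjusted over all genes. At 1 cell no gene was a DEG by limma (0.0607% of all genes up and 0.216% down), with 1 at an unadjusted p below 0.05, and the 95% intervals of MGCD0103 minus T247 reached from -0.79 to 1.07 over the 43 genes without Psmb9 and Psmb10. At 2 cells 4 were higher with MGCD0103 and 1 lower (3.32% and 2.83% of all genes), and 26 of 45 had an adjusted limma p below 0.05, as had 37.6% of all genes; the median was 0.39 against 0.24. On the 75th percentile scale none was higher and 2 were lower (1.22% and 3.93%), and under quantile normalization 1 and 4 (2.78% and 5.79%), so the split between higher and lower depends on the scale. The lid subunit Psmd6 read 9.84, 9.90 and 9.87 with MGCD0103 and 8.84, 8.76 and 8.80 with T247 (1.07 ± 0.11, limma adjusted p = 3.2e-08; 0.93 when centred on the 75th percentile). Psmd2, the scaffold of the base, read 12.70, 12.60 and 12.37 against 11.27, 11.60 and 11.58 (1.07 ± 0.15, limma adjusted p = 7.6e-06; 0.93 without replicate 1 of T247).

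The structural subunit Psmb3 read 14.51, 14.34 and 14.16 with MGCD0103 and 13.07, 13.41 and 13.34 with T247 (1.06 ± 0.21, limma adjusted p = 2.5e-04), a call lost without replicate 1 of MGCD0103 (0.98) or of T247 (0.93). Psmd9 was higher by 1.05 ± 0.28 (limma adjusted p = 3.9e-03) and the inducible Psmb10 lower by 1.43 ± 0.29 (limma adjusted p = 4.5e-04; -0.84 with normexp background correction). No array of the one inhibitor overlapped with the other in these genes. Psmb5, with the lower readings under MGCD0103, gave -0.97 ± 0.39 (limma adjusted p = 4.8e-02), just short in size of a DEG. Its other probe gave -1.05 and was a DEG. The 95% intervals of the 45 genes at 2 cells reached from -2.02 to 1.62.

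At the 4-cell stage, measured for T247, 3 genes fell and 2 rose, where 6.37% of all genes fell and 11.0% rose, with a median of -0.54 against -0.03. On the 75th percentile scale 9 fell and 1 rose (9.65% and 8.84%), with medians of -0.69 and -0.17. Psmb3 read 12.03, 11.74 and 12.37 against 13.54, 13.58 and 13.60 and fell by 1.52 ± 0.21 (limma adjusted p = 6.9e-07), and Psma7 read 12.53, 12.51 and 12.80 against 13.70, 13.82 and 13.73 and fell by 1.14 ± 0.14 (limma adjusted p = 1.9e-07). Psmc6 read 9.16, 8.42 and 9.51 against 10.11, 9.87 and 10.16 (-1.02 ± 0.21, limma adjusted p = 1.9e-04), a call lost without replicate 2 of T247 (-0.76) or replicate 3 of the controls (-0.89). In all 3 genes every treated array lay below every control array.

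The genes that rose with T247 at 4 cells both belong to the interferon-inducible forms of the proteasome. Psme2 read 11.96, 12.22 and 11.57 against 10.36, 10.52 and 10.36 (1.5 ± 0.45, limma adjusted p = 7.3e-03; its other probe 1.61). Psmb10 read 11.48, 11.81 and 11.70 against 10.67, 10.93 and 10.36 (1.01 ± 0.29, limma adjusted p = 5.2e-03), and was no DEG without replicate 2 (0.90) or 3 (0.95) of T247, without replicate 1 or 3 of the controls (0.94 each), or when centred on the 75th percentile (0.87). Psmb9 read 6.67, 6.64 and 6.67 against 3.48, 5.83 and 5.61, all above the controls, and gave 1.68 ± 0.71 (limma adjusted p = 5.1e-02), not a DEG. Their partner Psme1 read 9.77, 9.80 and 10.20 against 10.42, 10.51 and 10.46, below the controls (-0.54). The 4 blood cell markers summed to 2.79 to 3.39 with T247 and to 1.17 to 1.37 in the 4-cell controls. In both groups 2 of the 4 were well above background on all arrays and 2 on none. The part of these markers in the rises was not tested.

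None of the constitutive catalytic subunits was a DEG with T247 at 4 cells. Psmb5 read 14.99, 14.97 and 15.39 against 15.68, 15.51 and 15.49 (-0.44 ± 0.39), Psmb6 13.55, 13.45 and 13.72 against 14.02, 13.99 and 13.87 (-0.38), and Psmb7 11.22, 11.22 and 11.34 against 12.24, 12.23 and 12.30 (-0.99 ± 0.14), and every treated array was the lower. The remaining activators gave -0.14 (Psme3: 10.25, 9.87 and 10.21), -0.02 (Psme4: 11.10, 11.41 and 10.48) and -0.90 (Psmf1: 6.93, 6.68 and 7.11). As an interaction, the T247 effect moved up from 2 to 4 cells in 5 genes and down in 3 (19.3% and 7.73% of all genes), with 1 and 5 when centred on the 75th percentile (11.0% and 13%) and 14 and 5 without replicate 1 of the 2-cell controls (26.9% and 9.30%). Psmb5 moved up by 2.54.

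A list of 31 other genes of the ubiquitin-proteasome pathway, from ubiquitin genes to proteasome-bound enzymes and regulators, had 29 tested genes. At the following stage steps its median was nearer to that of all genes than the subunits were: -0.37 from GV to MII (13 fell and 1 rose, where 48.8% and 0.526% of all genes did), -1.05 from 1 to 2 cells (15 fell and 5 rose, where 33.9% and 18.2% did) and 0.45 from 2 to 4 cells (10 rose and 9 fell, where 25.8% and 34.1% did). Rps27a, a ubiquitin and ribosomal fusion gene, gave both the largest fall from GV to MII (-6.96 ± 0.18) and the largest rise from 1 to 2 cells (5.16 ± 0.18). Usp14, the deubiquitinase bound to the base, had the largest rise from MII to 1 cell (1.54 ± 0.11) and from 2 to 4 cells (4.01 ± 0.11). With T247 at 2 cells 8 fell and 1 rose (17.1% and 8.32% of all genes), and with MGCD0103 7 fell and 2 rose (16.2% and 11.8%), with medians of -0.73 and -0.11. The median with T247 was no nearer to that of all genes than the subunits were. Nfe2l2, a stress regulator that activates proteasome genes, had the largest rise with each (1.15 ± 0.28 and 1.22 ± 0.28), and Rps27a (-1.87 ± 0.18, T247) and the segregase Vcp (-2.16 ± 0.16, MGCD0103) the largest falls.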

How the data were processed

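Total RNA of 100 oocytes or embryos per sample was labelled with Cy3 after low input amplification and hybridised to 1-colour mouse arrays. Per the file headers, Feature Extraction version 10.7.1.1 made the deposited intensity columns (the labels name 9.5.1.1): background-subtracted processed signals, with flags for spots above background. The authors' value table holds log2 values of the same arrays and was an alternative. The file of MGCD0103 1-cell replicate 1 had been saved again with 3 significant digits and 58 altered gene names, so names came from another array.

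Following the study's methods, outlier spots (0.220%) were dropped and the spots of a probe averaged. A probe was kept if every condition had at least 1 positive and significant array (19828 probes), and other spots were filled in by a robust estimate (2.21%). The brightest probe stood for a gene. Log2 signals were smooth quantile normalized, and limma 3.58.1 (R 4.3.3) was fitted to the 13 conditions and 39 arrays with 29.07 degrees of freedom. A DEG needed both a 2-fold difference and a Benjamini-Hochberg adjusted p below 0.05. Of 55681 probes, 27235 were named by accession, 3581 by symbol and 565 by synonym through RefSeq, and 24300 kept no RefSeq name. The code was tested on simulated data.

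Values of every array are given for the catalytic, restricted and inducible subunits, the activators with Psmf1, and up to 3 DEGs with the largest rise and fall per comparison; a few more genes were described after their values were seen. Pathway genes were named by largest rise and fall. The members, lists and markers were chosen with earlier results of these data known. Where no array of the dimmer group was well above background, a bound ("at least N-fold") is given, from the lowest signal well above background. Alternatives were normexp background correction (offset 50), 75th percentile and quantile scaling, other detection filters, no fill-in, the mean of probes, the value table, the 24 inhibitor-experiment arrays alone, replicate number as a block, slide as a random block, and each array left out. Control arrays of the same number share a slide, and their deviations correlated with a mean of 0.0968, with 35 of 84 pairs over 0.1. The number of arrays limits the precision.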

Additional observations from a re-analysis of the deposited data

Results flagged for a closer look

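The effect of T247 on 16 proteasome genes differed between 1 and 2 cells, as tested by the interaction term in limma. It moved down in Psmb5 (-3.33), Psmg2 (-2.05), Psma3 (-2), Psma7 (-1.88), Psmc5 (-1.84), Psmd12 (-1.68), Psmc2 (-1.57), Psmd14 (-1.51), Psmc1 (-1.43), Psmd13 (-1.32), Psmb7 (-1.27), Psmb1, Psmd7 and Psmd6 (-1.17 each), Psmd11 (-1.12) and Psmd5 (-1.01). The effect of MGCD0103 differed in 14 genes. It moved down in Psmb5 (-4.35), Psmg2 (-2.76), Psma3 (-2.61), Psmd13 (-2.51), Psmd12 (-2.18), Psmd14 (-1.79), Psmb1 (-1.73), Psmb10 (-1.35), Psmb7 (-1.3), Psma7 and Psmd7 (-1.05 each), and up in Psmb6 (1.02), Psmb3 (1.12) and Psmd9 (1.33). From 2 to 4 cells the effect of T247 differed in 8 genes, moving down in Psmd10 (-1.47), Psmb3 (-1.44) and Psme1 (-1.1) and up in Psmd5 (1.06), Psmc5 (1.22), Psmd12 (1.23), Psma3 (1.25) and Psmb5 (2.54). All these contrasts use the 2-cell controls, of which replicate 1 stood apart. The value of Psmb10 with MGCD0103 rests on 1-cell controls that were not well above background, and that of Psmg2 on controls above it on 1 of 3 arrays, so their sizes are uncertain.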

How the results depend on the processing

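Of 189 counts of proteasome DEGs recomputed under other settings, 180 stayed within 1.5 times the count given. With 75th percentile scaling the count of DEGs in both directions became 2 from 4 to 8 cells, 2 from 8 cells to the morula, 12 from the morula to the blastocyst, 10 with T247 at 4 cells, 2 between the inhibitors at 2 cells and 9 for the change of the T247 effect from 1 to 2 cells. Quantile normalization gave 1 from 4 to 8 cells and 2 from 8 cells to the morula, and normexp gave 3 between the inhibitors at 2 cells. The cause was not tested. Where the share of all genes under the same setting is not given above, a changed count cannot be set against all genes. The median LFC changed sign with 75th percentile scaling from MII to 1 cell (-0.15) and with T247 (-0.063) and MGCD0103 (-0.026) at 1 cell, and with quantile normalization between the inhibitors at 1 cell (-0.030). With the replicate block the count with T247 at 4 cells was 6 and the other counts were as given, and fits of the 24 control arrays alone with the replicate block, chosen after seeing the data, called Psme2 no DEG at the blastocyst.

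Leaving out 1 array gave counts of 33 to 36 from GV to MII, 12 to 15 from MII to 1 cell, 31 to 35 from 1 to 2 cells, 36 to 37 from 2 to 4 cells, 2 to 9 from 4 to 8 cells, 14 to 28 from 8 cells to the morula and 1 to 4 from the morula to the blastocyst. They were 0 to 1 with T247 and 0 to 1 with MGCD0103 at 1 cell, 11 to 18 and 9 to 21 at 2 cells, 4 to 7 with T247 at 4 cells, 0 to 0 and 3 to 6 between the inhibitors at 1 and 2 cells, and 12 to 21, 8 to 24 and 6 to 19 for the changes of effect. The extremes came without 2-cell control replicate 1 (21, 24 and 19) or 2 (8), 4-cell control replicate 1 (2), 8-cell replicate 1 (9) or 3 (2), blastocyst replicate 3 (1) and 2-cell T247 replicate 1 (3). Apart from the fits without 2-cell control replicate 1, no share of all genes stands beside these counts. Of the named members, 38 of 750 calls under other settings and 35 of 401 with an array left out fell short of a DEG, and the only called genes to change sign were Psma1, Psma2 and Psmd14 from GV to MII under another scaling.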

Other observations

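Where a gene had several passing probes, 133 of 154 pairs of gene and comparison gave all probes the same sign, and no gene had probes called in opposite directions. Oocyte marker genes summed to between 9.37 and 11.4 log2 units above the 75th percentile in controls from GV oocytes to the 2-cell stage and to between 0.141 and 0.308 in the blastocyst, and blastocyst markers to at least 10.3 in the blastocyst against 4.63 to 5.97 in controls up to 4 cells. Blood markers ranged from -4.08 to 3.39 and sperm markers from -1.23 to 3.44 over all arrays. In 2-cell embryos the blood markers were at 0.891 to 2.17 in controls, 2.99 to 3.14 with T247 and 2.35 to 2.67 with MGCD0103. In each of these groups 2 of the 4 genes were well above background on all arrays. The part of these markers in the inhibitor comparisons was not tested.

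Other pathway genes moved at single steps. The stress regulator Nfe2l2 rose from 8 cells to the morula by 3.93 ± 0.28, and Zfand5, a ubiquitin-binding activator of the proteasome, fell at the same step by 1.23 ± 0.18. Midn (midnolin), which brings nuclear proteins to the proteasome, fell from 2 to 4 cells by 3.35 ± 0.13, the step at which most proteasome genes rose, and Akirin2, which carries proteasomes into the nucleus, fell from 1 to 2 cells by 2.34 ± 0.23. Zfand5 was higher with MGCD0103 than with T247 at 2 cells by 1.17 ± 0.18.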
